A study of Mus musculus with 10 samples.

Results

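The comparison described here sets murine Sertoli cells at an age of 15 days post partum (dpp) against murine Sertoli cells at 6 dpp, both given 0 ng activin. It rests on 4 of the 10 arrays of the study, 2 for each age, taken from the sample titles. Of the other 6 arrays, 4 held cells of the same ages given 5 ng activin and 2 held 6 dpp cells given 50 ng. Total RNA was extracted with Trizol, amplified from the 3' end, labelled with biotin and hybridised to Affymetrix arrays, and the deposited values were 1 signal per probe set and array. The stated subject of the study is how activin uses SMAD2 and SMAD3 at different ages. The 0 ng arrays show how the cells of the 2 ages differed without added activin. Mouse strain, the way the cells were isolated, the time in culture, the number of animals and the volume for the activin dose are not named by the labels. Nothing says whether both replicates of a group came from separate preparations, so the p-values rest on the spread of these arrays alone, and that spread may be technical.

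Sertoli cells are the supporting cells of the seminiferous tubule. In young mice they divide and make anti-Mullerian hormone, and as they mature they stop dividing, close the tight junctions of the blood-testis barrier, take up iron and vitamin A for the germ cells and feed them with lactate made from glucose. Over the same period the first germ cells leave the spermatogonial stage and enter meiosis while attached to the Sertoli cells. Activin is a dimer of inhibin beta subunits that signals through type II and type I receptors to SMAD2 and SMAD3. Follistatin binds activin, inhibin competes for its receptors, and SMAD7 and the SKI proteins dampen the pathway.

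The 2 ages differed in more genes than not. Of 12405 genes tested, 7093 (57.2%) differed between 15 and 6 dpp at an adjusted p under 0.05, of which 3574 (28.8%) were higher and 3519 (28.4%) lower at 15 dpp. At least 2-fold differences were found in 1100 higher (8.87%) and 1146 lower genes (9.24%). The median change over all genes was 0.0022 on the log2 scale. Counts of called members in the gene lists below are to be read beside the 28.8% higher and 28.4% lower of all genes. Most genes named from a list were picked for the smallest limma p in it. Where their arrays are said not to overlap between the ages, this follows largely from that choice and is no separate result. The share of all genes without overlap is not given here. Correlations across genes were 0.989 for both pairs of arrays of the same age and lay between 0.836 and 0.845 for arrays of different ages. Changes below are log2 differences, 15 minus 6 dpp, ± standard error (SE), on the scale of log2(signal + 16), which understates the change of low genes, and every adjusted p is from limma. A gene whose signal lay under 18.4, the level of the filter, is called dim here, and the size of a change against a dim group depends on the added 16.

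The RNA of both ages held Sertoli cell transcripts, and the 15 dpp RNA held much more germ cell RNA. Signals of Wt1, a transcription factor of the Sertoli cell, were 499 and 481 at 6 dpp against 590.4 and 702 at 15 dpp, those of Sox9, which drives Sertoli cell fate, were 683 and 536 at 6 dpp against 409 and 418 at 15 dpp, and those of Clu, the abundant secreted protein clusterin, were 8814 and 9398 at 6 dpp against 8789 and 9568 at 15 dpp. All 3 lay far above the filter at both ages. The summed signal of 43 meiotic genes was 3828 and 3971 at 6 dpp against 36460 and 33712 at 15 dpp, and that of 23 Sertoli identity genes was 16396 and 15604 at 6 dpp against 11606 and 11802 at 15 dpp. The meiotic sum was thus higher, and the Sertoli identity sum lower, on both 15 dpp arrays than on either 6 dpp array. The Sertoli identity sum also holds genes known from other cells too. Among these were Tcf21, with mean signals of 1559 at 6 dpp and 388 at 15 dpp, and Dmrt1, with 1314 and 436. In such bulk samples fewer cells of a type and less RNA per cell cannot be told apart. The germ cell RNA moved with age beside every gene list below, and its part in those results was not tested.

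**Figure D1:**
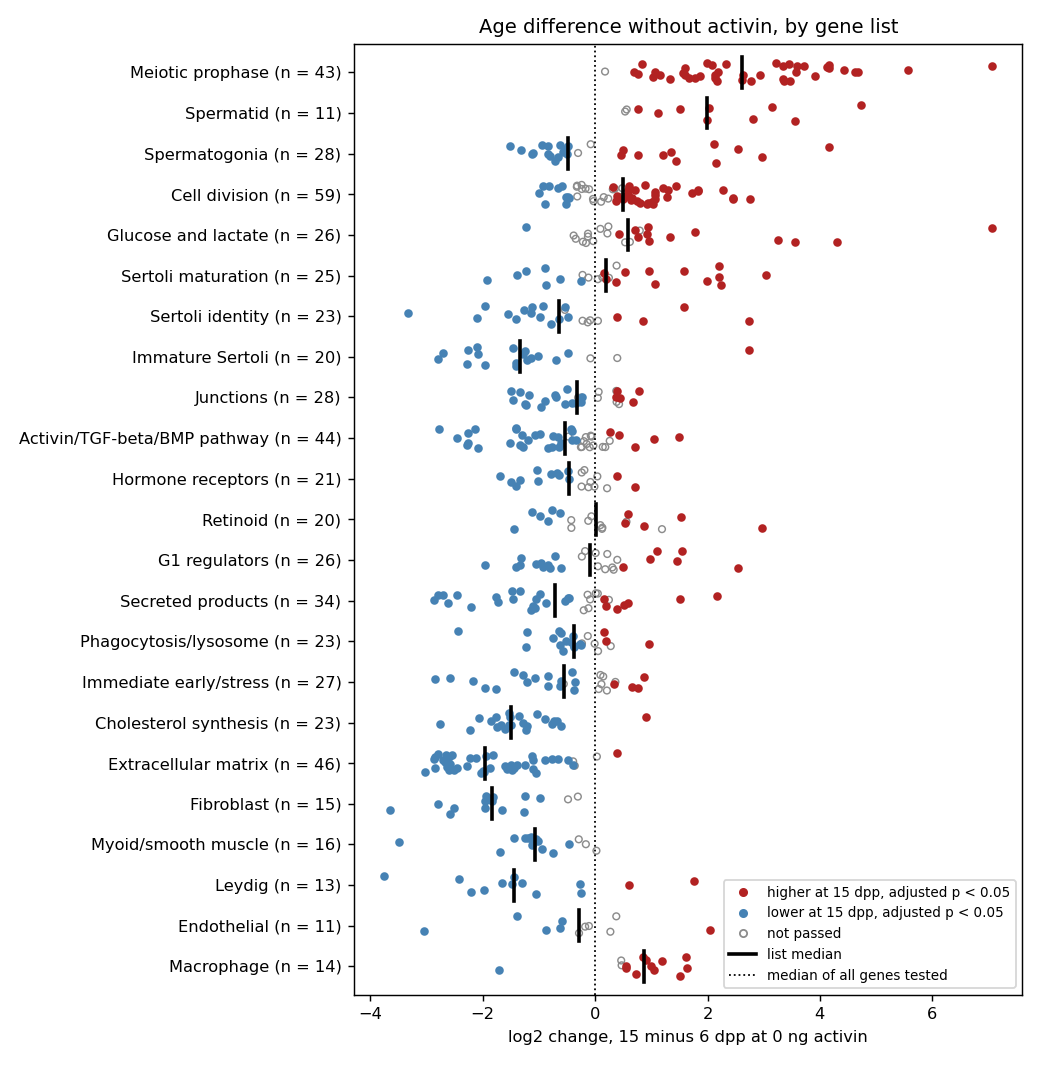
Each point is 1 gene; the horizontal axis is its log2 change, 15 minus 6 dpp at 0 ng activin, and the rows are gene lists with the number of members tested. Red and blue points passed at an adjusted p under 0.05, open circles did not, black bars are list medians and the dotted line is the median of all genes, 0.0022. Of the lists plotted, the meiotic list has the highest median, 2.61, and the extracellular matrix list the lowest, -1.96.

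The 15 genes with the largest increases included Ldhc, Fabp9 and Rsph1. Signals of Ldhc, the lactate dehydrogenase of spermatocytes and sperm, were 22.1 and 7.25 at 6 dpp against 4047 and 3917 at 15 dpp, a change of 7.06 ± 0.20 (adjusted p = 1.35e-10). Those of Fabp9, a fatty acid binding protein of the testis, were 0.975 and 2.35 at 6 dpp against 1548 and 1519 at 15 dpp (6.42 ± 0.21, adjusted p = 2.39e-10), and those of Rsph1, a radial spoke protein of the axoneme, were 44.5 and 39.2 at 6 dpp against 2458 and 2429 at 15 dpp (5.39 ± 0.10, adjusted p = 1.14e-11). Ldhc and Fabp9 were thus at or near the dim range at 6 dpp and among the bright genes at 15 dpp. All 15 were picked from genes whose ages did not overlap, so their lack of overlap is no separate result. The other 12 of the 15 are given in alphabetical order, since nearly all of these sizes rest on the dim end of the scale. They were Crisp2 (4.74) and Dkkl1 (4.74), which encode proteins of the acrosome, Fhl4 (4.99), Ldhal6b, a testis lactate dehydrogenase-like gene (5.28), Ly6k (5.53), Meig1 (5.60), Morn5 (5.18), Pdcl2 (5.48), Spata4 (5.80), Tesmin (4.76), the tubulin glycylase gene Ttll8 (4.77) and the germ cell RNA-binding protein gene Ybx2 (5.57). Of the 15, 12 were dim on both 6 dpp arrays, and with a pseudocount of 1 the change of Fabp9 (9.12) exceeded that of Ldhc (8.14). On the germ cell lists used here were 3 of the 15, Ldhc, Ybx2 and Crisp2. Of the 1100 genes that were at least 2-fold higher, 280 were dim on both 6 dpp arrays, so the sizes of their changes depend on the low end of the scale.

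Genes of meiotic prophase rose almost without exception. Of 43 members tested, 42 rose, none fell and 1, Mei4 (0.18 ± 0.21, adjusted p = 0.504), did not pass, with a list median of 2.61 against 0.0022 over all genes. Signals of Sycp3, a protein of the chromosome axis, were 119 and 151 at 6 dpp against 3105 and 3302 at 15 dpp (4.44 ± 0.10, adjusted p = 4.29e-11), and those of its partner Sycp2 were 118 and 126 at 6 dpp against 2097 and 2019.7 at 15 dpp (3.91 ± 0.10, adjusted p = 7.07e-11). Those of Meioc, which keeps germ cells in meiosis, were 6.63 and 13.9 at 6 dpp against 687 and 642 at 15 dpp (4.67 ± 0.15, adjusted p = 2.65e-10). The axis genes were thus present at a low level at 6 dpp, while Meioc was dim there, and the 15 dpp arrays were higher for all 3. The other members with a change over 3 included Sycp1 (3.59) and Syce3 (3.34) of the synaptonemal complex, Spo11 (3.72), which cuts DNA to start recombination, the strand exchange gene Dmc1 (3.35), Msh4 (3.58), Hormad1 (4.62), Meiob (4.16) and Piwil1 (4.12), which encodes a partner of small RNAs. Of the 43 members, 16 had a 6 dpp mean under the filter and entered the test through their 15 dpp signals. Without the filter, 45 of 47 rose and none fell, with a median of 2.19.

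The promoters of Ldhc and Sycp1 are shown because they hold the sequence AACNGTT, bound by MYB proteins such as MYBL1, a known regulator of genes of this stage whose own gene rose (Mybl1, 1.99 ± 0.14, adjusted p = 1.59e-07). The stretches are the 250 bases before the start of the gene, 5′ to 3′ on the coding strand, from RefSeq with build GRCm38.p6, and capitals mark AACNGTT on either strand.
Ldhc, chr7:46861013-46861262, plus strand: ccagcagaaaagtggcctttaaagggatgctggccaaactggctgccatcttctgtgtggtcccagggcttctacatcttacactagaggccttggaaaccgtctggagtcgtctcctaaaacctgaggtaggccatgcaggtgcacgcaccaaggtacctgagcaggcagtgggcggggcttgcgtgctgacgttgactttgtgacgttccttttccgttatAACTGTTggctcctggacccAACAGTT
Sycp1, chr3:102936101-102936350, minus strand: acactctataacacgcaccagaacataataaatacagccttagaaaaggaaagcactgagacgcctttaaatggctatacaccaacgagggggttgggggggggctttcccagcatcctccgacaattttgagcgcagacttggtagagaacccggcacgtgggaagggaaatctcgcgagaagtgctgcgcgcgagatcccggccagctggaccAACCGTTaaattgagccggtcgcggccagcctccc
In Ldhc the nearer of 2 matches began 7 bases before the start of the gene, and in Sycp1 the single match began 35 bases before it. The table lists 2 starts for Ldhc, of which 1 is shown. The table held promoters for 34 of the 43 meiotic members, with 43 windows. Of these windows 3 (6.98%) held the motif, against 3.8% of all 32851 windows of the same length. With so few matches the 2 shares cannot be told apart, and their difference was not tested. A match describes the letters in the window only. No binding was measured here.

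Later germ cell genes were mostly dim, and the spermatogonial genes split. Of 34 spermatid genes 11 were tested, of which 9 rose and none fell (median 1.99), 7 of the 11 having a 6 dpp mean under the filter. Without the filter, 11 of 34 rose and none fell, with a median of 0.22. Signals of Zpbp, an acrosomal protein, were 14.9 and 14.2 at 6 dpp against 197 and 211 at 15 dpp, and those of Tekt1, a filament protein of the axoneme, 15.6 and 7.97 at 6 dpp against 253 and 218 at 15 dpp (2.81 ± 0.17 and 3.14 ± 0.19). For Zpbp 1 of 2 probe sets went the other way. The genes of the condensed sperm nucleus were dim at both ages, with mean signals of 4.85 at 6 dpp and 4.28 at 15 dpp for the protamine gene Prm1 and 6.15 and 4.22 for the transition protein gene Tnp1. Of 28 spermatogonial genes 11 rose and 15 fell, with a median of -0.49.

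The spermatogonial members that rose were led by genes known from differentiating and later germ cells. Signals of Stra8, which starts meiosis under retinoic acid, were 28.8 and 43.9 at 6 dpp against 451 and 352 at 15 dpp (2.96 ± 0.17, adjusted p = 2.41e-08), those of the RNA-binding protein gene Dazl were 562 and 586 at 6 dpp against 2576 and 2445 at 15 dpp (2.12 ± 0.069, adjusted p = 2.49e-10) and those of the surface protein gene Tex101 were 217 and 186 at 6 dpp against 3904 and 3665 at 15 dpp (4.17 ± 0.14, adjusted p = 2.92e-10). Each was higher on both 15 dpp arrays, as was Ddx4, a germ cell helicase (2.16 ± 0.095). Several genes of undifferentiated spermatogonia were lower. Zbtb16, a transcription factor of these cells, had signals of 333 and 413 at 6 dpp against 155 and 121 at 15 dpp (-1.32 ± 0.13, adjusted p = 2.18e-06), and the GDNF receptor genes Ret and Gfra1 changed by -1.51 ± 0.17 (adjusted p = 9.25e-06) and -1.11 ± 0.15 (adjusted p = 4.92e-05). Etv5 (-1.13), Lin28a (-0.84) and Sall4 (-0.80) were lower as well. Id4, known from stem spermatogonia and also from Sertoli cells, went the other way (2.54 ± 0.10, adjusted p = 1.29e-09), with signals of 203 and 168 at 6 dpp against 1169.5 and 1181 at 15 dpp.

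**Figure D2:**
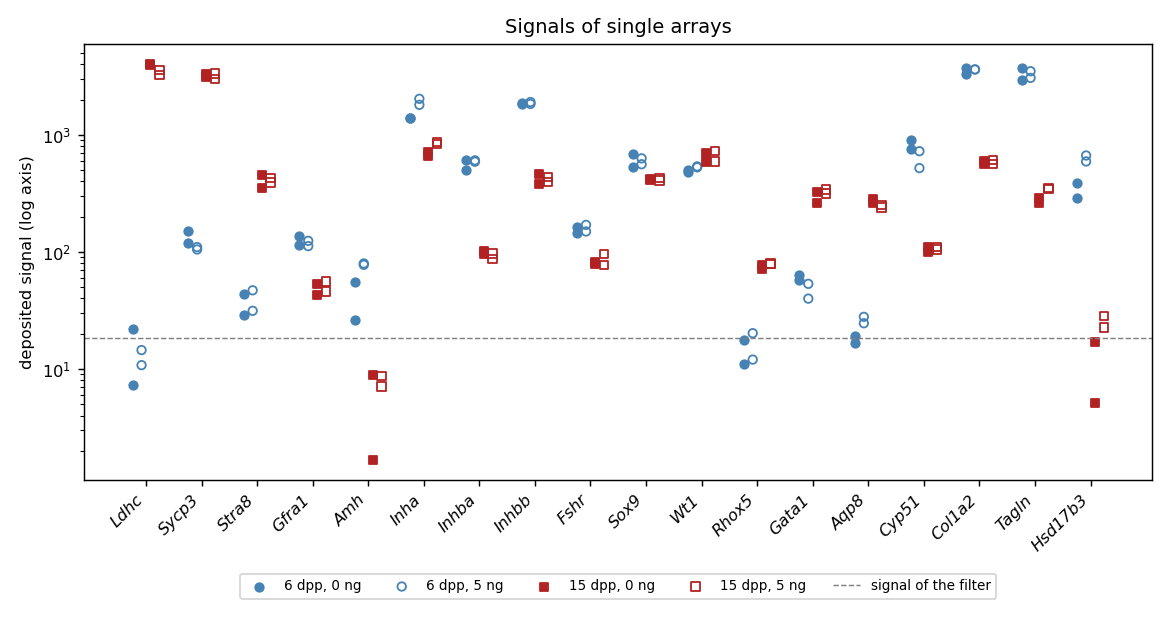
Deposited signals on a log axis for 18 genes, with 1 point per array: circles for 6 dpp, squares for 15 dpp, filled at 0 ng and open at 5 ng activin; the dashed line is the signal of the filter, 18.4. The ages separate for the germ cell gene Ldhc in one direction and for Amh, Inhba, Col1a2 and Hsd17b3 in the other, and the gap between the ages of these 5 genes is seen at both doses.

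Genes that mark the immature Sertoli cell fell. Of 20 members tested, 17 fell and 1 rose, with a median of -1.35. Signals of Amh, the anti-Mullerian hormone gene, were 55.1 and 26.1 at 6 dpp against 1.67 and 8.90 at 15 dpp (-1.40 ± 0.27, adjusted p = 6.51e-04), low at 6 dpp and dim at 15 dpp. Those of the keratin gene Krt18 were 261 and 275 at 6 dpp against 52.6 and 33.7 at 15 dpp (-2.27 ± 0.15, adjusted p = 9.40e-08), and those of Mdk, the growth factor midkine, 957 and 1020.3 at 6 dpp against 153 and 115 at 15 dpp (-2.71 ± 0.12, adjusted p = 1.79e-09). None of these overlapped between the ages. Thra, the thyroid hormone receptor through which the hormone ends Sertoli cell division, had signals of 537 and 517 at 6 dpp against 204 and 168 at 15 dpp (-1.41 ± 0.094, adjusted p = 8.07e-08). Igfbp5 (-2.80), Ncam1 (-1.47), Krt8 (-1.25), Gdnf (-1.15) and Vim (-0.48) fell too. The member that rose was Nr0b1, the nuclear receptor DAX1, whose signals were 15.8 and 17.03 at 6 dpp against 189.96 and 222 at 15 dpp (2.74 ± 0.18, adjusted p = 6.94e-08). Ccnd2, the D-type cyclin of dividing Sertoli cells, had signals of 1546 and 1559 at 6 dpp against 1355 and 3131 at 15 dpp, so that 1 array of 15 dpp lay below and the other above both 6 dpp arrays (0.39 ± 0.35, adjusted p = 0.359). Without 15 dpp replicate 1 it passed with a change of 1.01, which makes 2 members that rose, and without replicate 2 it had a change of -0.21.

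Of 23 Sertoli identity genes, 14 were lower, 4 were higher and 5 did not pass, with a median of -0.65. The transcription factor gene Gata4 had signals of 493 and 503 at 6 dpp against 259.5 and 250.5 at 15 dpp (-0.92 ± 0.099, adjusted p = 5.62e-06), Dmrt1, which keeps the male fate of the cells and also acts in spermatogonia, 1362 and 1266 at 6 dpp against 472 and 401 at 15 dpp (-1.55 ± 0.13, adjusted p = 5.52e-07), and Dhh, the hedgehog ligand sent to Leydig and myoid cells, 1208 and 1020.2 at 6 dpp against 486 and 418 at 15 dpp (-1.26 ± 0.10, adjusted p = 3.67e-07). The levels at 15 dpp were the lower ones for each. Sox9 fell by 0.53 ± 0.12 (adjusted p = 0.0018), and 1 of its 3 probe sets went the other way. Fshr, the receptor of follicle-stimulating hormone, had signals of 144 and 164 at 6 dpp against 78.1 and 82.2 at 15 dpp (-0.78 ± 0.14, adjusted p = 5.03e-04). The pantetheinase gene Vnn1 (-3.33 ± 0.15), Tcf21 (-1.96 ± 0.11) and Lhx9 (-2.10 ± 0.18) fell further, and Tcf21 is known from interstitial cells as well. Wt1 rose by 0.38 ± 0.11 (adjusted p = 0.0077), a call that was lost without 15 dpp replicate 2 (0.26). The other members that rose were Nr0b1, Rhox5 and Cited1 (0.84 ± 0.083).

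Genes known to rise as Sertoli cells mature went both ways, with 12 of 25 higher, 7 lower, a share close to the 28.4% over all genes, and a median of 0.19 that was 0.071 with array medians subtracted. Signals of Aqp8, a water channel, were 16.8 and 19.1 at 6 dpp against 284 and 261 at 15 dpp (3.04 ± 0.13, adjusted p = 1.88e-09). Those of Gata1, a transcription factor that appears in Sertoli cells with the first wave of germ cells, were 63.1 and 57.1 at 6 dpp against 259 and 324 at 15 dpp (1.99 ± 0.15, adjusted p = 3.06e-07), and those of Rhox5, an androgen-regulated homeobox gene, were 11.01 and 17.8 at 6 dpp against 71.7 and 76.9 at 15 dpp (1.58 ± 0.18, adjusted p = 9.99e-06). Aqp8 and Rhox5 were close to the filter or under it at 6 dpp, and both 15 dpp arrays were higher for all 3. Eppin, a protease inhibitor of the sperm surface (2.24 ± 0.17, adjusted p = 3.10e-07), Tsx (2.20 ± 0.22) and Rnf17 (2.21 ± 0.11) rose as well, and Rnf17 is also known as a germ cell gene. Serpina5, the protein C inhibitor, fell by 0.88 ± 0.15 (adjusted p = 3.17e-04). Clu changed by 0.048 ± 0.04 (adjusted p = 0.331) and Cst9, a cystatin of Sertoli cells, by -0.12 ± 0.15 (adjusted p = 0.53).

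The junction genes were lower more often than higher, with 16 of 28 lower, 5 higher and a median of -0.32. The shares over all genes were 28.4% lower and 28.8% higher. Signals of Ocln, the tight junction protein occludin, were 472 and 391 at 6 dpp against 174 and 169 at 15 dpp (-1.24 ± 0.10, adjusted p = 6.90e-07), those of Cldn12 were 1384 and 1227 at 6 dpp against 463 and 537 at 15 dpp (-1.34 ± 0.093, adjusted p = 1.10e-07), and those of Vcl, which encodes vinculin, were 4495 and 3957 at 6 dpp against 1966 and 2175 at 15 dpp (-0.96 ± 0.071, adjusted p = 2.05e-07). The ages did not overlap for any of them. Amotl2 (-1.49), Marveld2 (-1.47), Cgnl1 (-1.25) and the polarity gene Pard3 (-1.18) were lower too. Members that rose were Cgn, the tight junction protein cingulin (0.77 ± 0.14, adjusted p = 4.96e-04), and the nectin gene Nectin3 (0.68 ± 0.085, adjusted p = 2.23e-05). Tjp1, which encodes ZO-1 (0.40 ± 0.065), the connexin gene Gjc1 (0.45 ± 0.11) and Espn, which encodes espin of the ectoplasmic specialisation (0.37 ± 0.15), made up the rest. The rise of Nectin3 was not seen over all its probe sets, whose mean changed by -0.07 and of which 2 of 6 were higher. Espn kept its call without 6 dpp replicate 1 and lost it without any other single array at 0 or 5 ng, with changes from 0.25 without 6 dpp replicate 2 to 0.46 without 15 dpp replicate 2, and also with either change of normalisation, a pseudocount of 1, no filter or only the 4 arrays.

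The main claudins and the connexin of the Sertoli cell gave less certain values. Cldn11, the claudin that forms the barrier strands, had signals of 2174 and 1858 at 6 dpp against 1603 and 1757 at 15 dpp. Its fall by 0.26 ± 0.098 was close to the threshold (adjusted p = 0.041) and was lost without 6 dpp replicate 1 (-0.17), 15 dpp replicate 1 (-0.20) or 15 dpp replicate 2 (-0.31). It was also lost without quantile normalisation, with array medians subtracted, without the filter and without the variance trend. Cldn3, an androgen-dependent claudin, had signals of 22.7 and 12.1 at 6 dpp against 54.7 and 11.5 at 15 dpp and did not pass (0.38 ± 0.45, adjusted p = 0.497). Only 1 of its 15 dpp arrays was above the 6 dpp arrays. Gja1, the gap junction protein connexin 43, had signals of 2151 and 2423 at 6 dpp against 914 and 1588 at 15 dpp (-0.89 ± 0.23, adjusted p = 0.0048), and its call was lost without 15 dpp replicate 1 (-0.53), with 1 of 6 probe sets in the other direction.

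Most genes of the activin, TGF-beta and BMP pathway that changed were lower at 15 dpp. Of 44 members tested 26 fell and 5 rose, with a median of -0.54, and 3 rose without 6 dpp replicate 1 or without 15 dpp replicate 1. Of the 44 members, 5 had a 15 dpp mean under the filter and 0 had a 6 dpp mean under it. Without the filter, 25 of 53 fell and 4 rose, with a median of -0.41. Among 12 ligands and subunits, 10 fell and 1 rose. Signals of Inhba, the beta A subunit of activin, were 498 and 615 at 6 dpp against 95.3 and 101 at 15 dpp (-2.28 ± 0.12, adjusted p = 1.29e-08). Those of Inhbb, the beta B subunit, were 1824 and 1879 at 6 dpp against 467 and 377 at 15 dpp (-2.08 ± 0.092, adjusted p = 2.18e-09), and those of Inha, the alpha subunit that makes inhibin, were 1383 and 1394 at 6 dpp against 714 and 662 at 15 dpp (-0.98 ± 0.11, adjusted p = 7.11e-06). All 3 subunits were lower on both 15 dpp arrays, and the beta subunits fell further than the alpha subunit in these values, a difference that was not tested. Of the 2 probe sets of Inhba, the other did not go the same way. Tgfb2 had signals of 513 and 539 at 6 dpp against 58.1 and 62.7 at 15 dpp (-2.78 ± 0.12, adjusted p = 2.18e-09), and Bmp2 (-2.27), Bmp6 (-1.34), Tgfb1 (-1.30), Bmp4 (-1.29) and Bmp7 (-0.60) also fell. Gdf9, known as an oocyte ligand and also found in male germ cells, rose by 0.70 ± 0.25 (adjusted p = 0.032), a call lost without 6 dpp replicate 1 (0.43) or either 15 dpp array (0.71 and 0.70) and without the filter.

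The extracellular binding proteins of the pathway went in both directions. Fst, which encodes follistatin, had signals of 505 and 363 at 6 dpp against 316 and 465 at 15 dpp, and the ages overlapped (-0.16 ± 0.20, adjusted p = 0.5). Fstl3, another activin-binding protein, had signals of 187 and 133 at 6 dpp against 423 and 535 at 15 dpp and rose by 1.49 ± 0.16 (adjusted p = 6.32e-06). Ltbp1, which holds latent TGF-beta in the matrix, rose by 1.04 ± 0.13 (adjusted p = 2.77e-05). Against these, Fstl1 had signals of 3099.5 and 2685 at 6 dpp against 494 and 504 at 15 dpp (-2.46 ± 0.12, adjusted p = 4.26e-09), the decoy receptor gene Bambi 485 and 403 at 6 dpp against 91.4 and 80.8 at 15 dpp (-2.13 ± 0.11, adjusted p = 1.18e-08), and the coreceptor gene Tgfbr3 changed by -1.19 ± 0.13. Fstl1 and Bambi were lower on both 15 dpp arrays.

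Of 9 receptors 6 fell and 1 rose, against 28.4% and 28.8% of all genes. The activin type II receptor genes Acvr2a and Acvr2b had signals of 213 and 201 at 6 dpp against 139 and 159.6 at 15 dpp and of 83.1 and 95.5 at 6 dpp against 43.9 and 54.1 at 15 dpp (-0.41 ± 0.11, adjusted p = 0.0064, and -0.67 ± 0.15, adjusted p = 0.0021). For both genes 1 probe set went the other way, and the mean over all probe sets changed by -0.03 for Acvr2a and -0.27 for Acvr2b, neither of which passed. Acvr2a also lost its call without 15 dpp replicate 1 (-0.31). The type I receptor gene Acvr1b had signals of 318 and 335 at 6 dpp against 293 and 255 at 15 dpp and did not pass (-0.25 ± 0.12, adjusted p = 0.102). Tgfbr2, the type II receptor of TGF-beta, had the largest receptor change (364 and 393 at 6 dpp against 117 and 123 at 15 dpp; -1.52 ± 0.10, adjusted p = 8.69e-08), with 1 of 3 probe sets in the other direction. Amhr2, the receptor of anti-Mullerian hormone, was bright at both ages (3029 and 3317 at 6 dpp against 4142 and 3914 at 15 dpp) and rose by 0.43 ± 0.13 (adjusted p = 0.015), a call lost without 6 dpp replicate 1 (0.36) or 15 dpp replicate 1 (0.38) and without the variance trend.

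None of the SMADs that carry the activin signal passed the test, while the inhibitory SMADs fell. Smad2 had signals of 399 and 424 at 6 dpp against 399 and 305 at 15 dpp (-0.24 ± 0.11, adjusted p = 0.092), Smad3 383 and 472 at 6 dpp against 376 and 426 at 15 dpp (-0.096 ± 0.12, adjusted p = 0.537) and Smad4, the common partner, 1622 and 1623 at 6 dpp against 1472 and 1489 at 15 dpp (-0.15 ± 0.087, adjusted p = 0.154). The deposited signals of Smad2 and Smad3 overlapped between the ages. Smad2 passed without 15 dpp replicate 1 (-0.42), and 2 of the 3 probe sets of Smad3 went the other way. Smad7, an inhibitory SMAD, had signals of 122 and 145 at 6 dpp against 57.3 and 72.6 at 15 dpp (-0.85 ± 0.19, adjusted p = 0.0022), and Smad6 changed by -1.40 ± 0.18 (adjusted p = 3.40e-05). Among the SMADs of the BMP branch Smad1 fell by 0.75 ± 0.11 (adjusted p = 1.21e-04) and Smad5 changed by -0.032 ± 0.095 (adjusted p = 0.799), with 2 of 3 probe sets in the other direction. Of 9 further regulators 4 fell, against 28.4% of all genes. Among them were the SMAD corepressors Skil, with signals of 576 and 590.5 at 6 dpp against 301 and 379 at 15 dpp (-0.77 ± 0.10, adjusted p = 3.81e-05), and Ski (-1.07 ± 0.096), and Pmepa1, a target and inhibitor of the pathway (-2.26 ± 0.19, adjusted p = 6.66e-07). Trim33 rose by 0.27 ± 0.078 (adjusted p = 0.01), but its probe sets together changed by 0.11 and did not pass, and it missed the threshold with array medians subtracted (0.26).

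**Figure D3:**
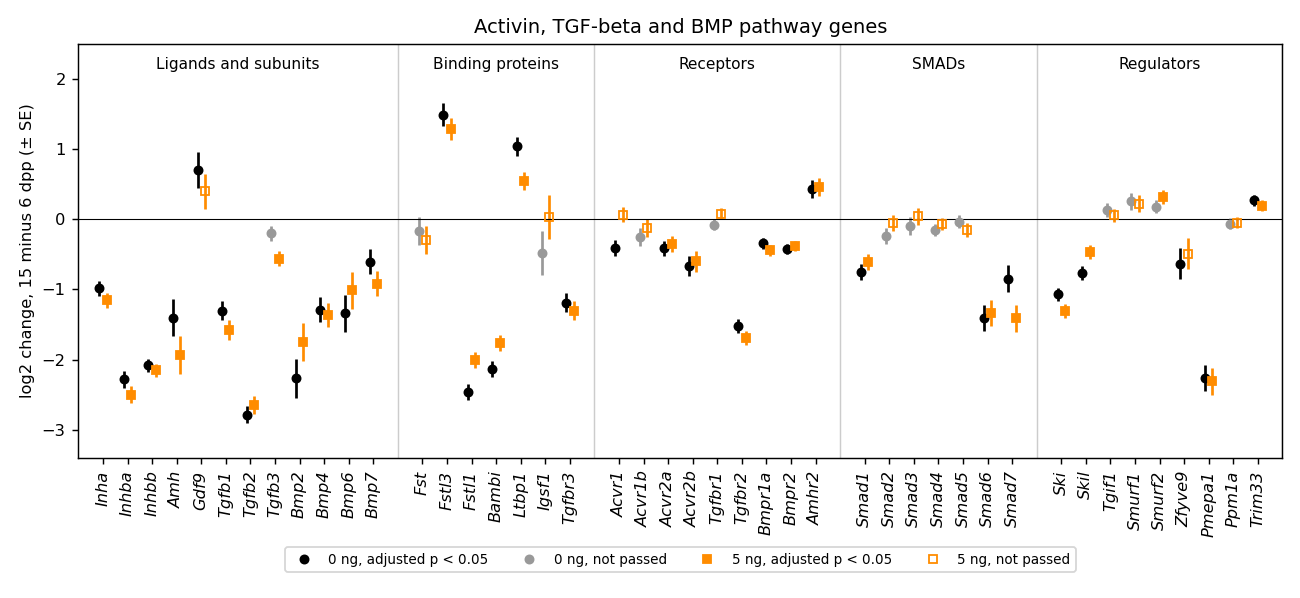
Log2 change, 15 minus 6 dpp, of 44 pathway genes grouped by role, with bars of 1 SE: circles at 0 ng and squares at 5 ng activin, in black or filled orange where the adjusted p was under 0.05. The ligands Inhba, Inhbb and Tgfb2 lie below -2 at both doses, and Smad2, Smad3 and Smad4 lie near 0.

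Hormone receptor genes and genes of their signalling were lower in 11 of 21 members and higher in 2, with a median of -0.47. Over all genes 28.4% were lower and 28.8% higher. Irs1, which carries insulin and IGF signals, had signals of 318 and 383 at 6 dpp against 86.6 and 105 at 15 dpp (-1.68 ± 0.14, adjusted p = 4.99e-07), and the IGF1 receptor gene Igf1r 642 and 617 at 6 dpp against 291 and 314 at 15 dpp (-1.02 ± 0.092, adjusted p = 1.27e-06). Esr1, the estrogen receptor alpha gene, had signals of 89.2 and 87.6 at 6 dpp against 22.4 and 19.5 at 15 dpp (-1.49 ± 0.16, adjusted p = 7.09e-06). The 15 dpp arrays were lower for each, as they were for Gnas, the stimulatory G protein downstream of the FSH receptor (-0.48 ± 0.052), and the adenylate cyclase gene Adcy3 (-1.34 ± 0.17). The members that rose were Crem (0.70 ± 0.13), a transcription factor of germ cells that answers to cyclic AMP, and Prkar2b (0.39 ± 0.15), a subunit of protein kinase A. Prkar2b lost its call under more alternatives than it kept it, among them those with the mean of its probe sets (0.11), without 6 dpp replicate 1 (0.16) and without either 15 dpp array (0.35 and 0.43). Hsd17b1, which reduces estrone to estradiol, had signals of 72.9 and 69.1 at 6 dpp against 17.4 and 13.6 at 15 dpp (-1.47 ± 0.17, adjusted p = 9.17e-06), the last 2 of them dim.

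Of 20 genes of vitamin A handling 5 were higher and 6 lower, shares close to the 28.8% and 28.4% over all genes. Their median was near 0 and ran from -0.16 to 0.11 with 1 array left out. The retinal dehydrogenase genes that make retinoic acid differed in direction. Aldh1a1, which is bright in Sertoli cells, had signals of 6309 and 6594 at 6 dpp against 3080.4 and 3130.3 at 15 dpp (-0.97 ± 0.049, adjusted p = 6.82e-09), and Aldh1a2, the form of germ cells, 544 and 404 at 6 dpp against 836 and 892 at 15 dpp (0.86 ± 0.12, adjusted p = 7.17e-05). Rdh10, which makes retinal from retinol, rose by 1.52 ± 0.19 (adjusted p = 1.91e-05). The receptor gene Rxra and the response gene Rarres1 fell by 1.12 ± 0.14 and 1.45 ± 0.12. Stra8, the response gene of germ cells, was described above.

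Genes of glucose uptake, glycolysis and lactate were higher in 12 of 26 members and lower in 1, with a median of 0.58, which was 0.29 without 15 dpp replicate 2 and 0.81 without 15 dpp replicate 1. The largest changes were those of Ldhc, of Pdha2, the testis form of a pyruvate dehydrogenase subunit (50.5 and 49.7 at 6 dpp against 1386 and 1271 at 15 dpp; 4.30 ± 0.11, adjusted p = 7.07e-11), and of the phosphoglycerate mutase gene Pgam2, also on the spermatid list (4.26 and 3.95 at 6 dpp against 235 and 216 at 15 dpp; 3.56 ± 0.16). Slc2a3, the high-affinity glucose transporter, had signals of 251 and 188 at 6 dpp against 2181 and 2266 at 15 dpp (3.25 ± 0.12, adjusted p = 6.45e-10), and Slc16a1, the lactate transporter, 445 and 397 at 6 dpp against 839 and 824 at 15 dpp (0.95 ± 0.082, adjusted p = 7.47e-07). Both were higher on the 15 dpp arrays without overlap. The member that fell was Pdha1, the somatic form of the subunit, with signals of 432 and 434 at 6 dpp against 163 and 181 at 15 dpp (-1.24 ± 0.094, adjusted p = 2.69e-07).

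For the general glycolytic genes the 2 arrays of 15 dpp differed. Signals of Ldha, the main lactate dehydrogenase, were 1118 and 923 at 6 dpp against 1248 and 2461 at 15 dpp (0.77 ± 0.26, adjusted p = 0.024), those of Pgk1 were 1199 and 1027 at 6 dpp against 1556 and 2828 at 15 dpp (0.91 ± 0.27, adjusted p = 0.012), and those of Tpi1 were 808 and 717 at 6 dpp against 1464 and 2563 at 15 dpp (1.33 ± 0.28, adjusted p = 0.0015). In each, 15 dpp replicate 2 was well above replicate 1, and both were above the 6 dpp arrays. Slc2a1, the widespread glucose transporter, showed the same pattern (533 and 543 at 6 dpp against 589 and 1206 at 15 dpp) and did not pass (0.62 ± 0.29, adjusted p = 0.09). Of the 26 members, 8 rose without 15 dpp replicate 2, 15 rose without 15 dpp replicate 1 and 8 rose in a limma fit without the variance trend. Without 6 dpp replicate 2, 8 of 27 members tested rose. What sets 15 dpp replicate 2 apart was not tested. Without it, Ldha, Pgk1 and Pdk1 (0.71 ± 0.23, adjusted p = 0.017) missed the threshold, with changes of 0.28, 0.48 and 0.39, and without 6 dpp replicate 2 they missed it with 0.65, 0.82 and 0.70. Slc2a1 passed without 15 dpp replicate 1 (1.11), without either 5 ng array of 15 dpp and in a fit limited to the 4 arrays at 0 ng. Pdk1 also lost its call without 6 dpp replicate 1 (0.72), and Ldha and Pdk1 lost theirs without the variance trend.

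**Figure D4:**
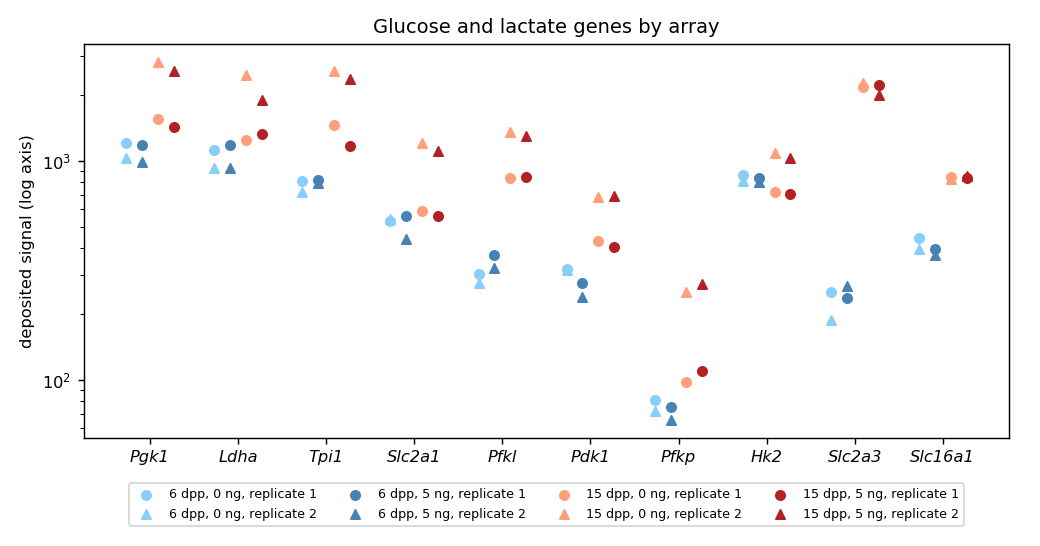
Deposited signals on a log axis for 10 genes of glucose and lactate metabolism on 8 arrays: blue for 6 dpp and orange or red for 15 dpp, paler at 0 ng than at 5 ng, circles for replicate 1 and triangles for replicate 2. For Pgk1, Ldha, Tpi1, Slc2a1, Pfkl, Pdk1 and Pfkp the 15 dpp triangles lie above the 15 dpp circles at both doses, while for Slc2a3 and Slc16a1 all 15 dpp points lie together above the 6 dpp points.

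Cholesterol synthesis genes fell in 22 of 23 members, with a median of -1.50. Signals of Cyp51, the lanosterol demethylase, were 911 and 762 at 6 dpp against 109 and 101 at 15 dpp (-2.76 ± 0.14, adjusted p = 6.25e-09), those of Msmo1, a sterol oxidase, were 2102 and 1748 at 6 dpp against 376 and 406 at 15 dpp (-2.23 ± 0.10, adjusted p = 3.17e-09), and those of Sqle, squalene epoxidase, were 1229 and 1012 at 6 dpp against 269.95 and 236 at 15 dpp (-2.06 ± 0.12, adjusted p = 3.18e-08). No 15 dpp array reached a 6 dpp array in any of them. Fdps (-1.85), Fdft1 (-1.35) and Sc5d (-1.21) fell as well, with 1 of the 2 probe sets of Fdps in the other direction. The regulators Srebf2 and Srebf1, which switch these genes on, fell by 1.76 ± 0.17 and 1.52 ± 0.12. The only member that rose was Insig2 (0.91 ± 0.11, adjusted p = 1.48e-05), which holds the regulators back in the endoplasmic reticulum.

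Matrix and stromal genes fell together. Of 46 matrix and basement membrane genes 42 fell and 1 rose (Timp2, 0.39 ± 0.083), with a median of -1.96. Signals of Lamb1, a laminin chain of the basement membrane, were 2059.98 and 2159.6 at 6 dpp against 342 and 297 at 15 dpp (-2.63 ± 0.075, adjusted p = 1.35e-10), those of Col1a2, a fibrillar collagen chain, were 3297 and 3711 at 6 dpp against 568 and 593 at 15 dpp (-2.52 ± 0.094, adjusted p = 6.58e-10), and those of Bgn, which encodes biglycan, were 3179 and 3013 at 6 dpp against 456 and 454 at 15 dpp (-2.70 ± 0.085, adjusted p = 2.20e-10). Itga6 (-2.12), Nid1 (-2.03), Col3a1 (-2.58) and Mmp14 (-3.03) fell similarly. All of these were bright at 6 dpp and lower on both 15 dpp arrays. The summed signal of the matrix list was 56169 and 55384 at 6 dpp against 18998 and 19197 at 15 dpp.

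Markers of the cells that surround the tubule fell as well. The fibroblast list shares members with the matrix list, such as Col1a2 and Col3a1, so these 2 lists are not separate observations. Of 15 fibroblast markers 13 fell and none rose (median -1.84), and their summed signal was 17699 and 19028 at 6 dpp against 3931 and 3920 at 15 dpp. Of 16 markers of peritubular myoid and smooth muscle cells 13 fell and none rose (median -1.08), with sums of 16804 and 14758 at 6 dpp against 6590 and 6559 at 15 dpp. Igf1, a growth factor of mesenchymal cells, had signals of 1588 and 1771 at 6 dpp against 106 and 122 at 15 dpp (-3.65 ± 0.10, adjusted p = 1.35e-10), Tagln, a smooth muscle protein, 3703 and 2960.3 at 6 dpp against 286 and 262 at 15 dpp (-3.48 ± 0.09, adjusted p = 7.07e-11), and Acta2, smooth muscle actin, 3855 and 3456 at 6 dpp against 1699 and 1592 at 15 dpp (-1.12 ± 0.066, adjusted p = 2.54e-08). These markers were bright at 6 dpp and still far above the filter at 15 dpp. The part of stromal RNA in the fall of the matrix genes was not tested.

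Of 13 Leydig cell genes 11 fell and 2 rose, with a median of -1.45. Signals of Hsd17b3, which makes testosterone from androstenedione and is known from both fetal Sertoli cells and Leydig cells, were 290.4 and 389 at 6 dpp against 5.09 and 16.97 at 15 dpp (-3.75 ± 0.21, adjusted p = 1.64e-08), dim on both 15 dpp arrays. Those of Hsd3b1 were 496 and 507 at 6 dpp against 92.7 and 93.2 at 15 dpp (-2.21 ± 0.09, adjusted p = 1.27e-09), and the steroid enzyme genes Cyp17a1 and Cyp11a1 changed by -1.97 ± 0.21 and -1.48 ± 0.19. Star, which carries cholesterol into mitochondria, rose, with signals of 54.8 and 69.2 at 6 dpp against 235 and 264 at 15 dpp (1.76 ± 0.12, adjusted p = 1.19e-07), as did Fdx1 (0.59 ± 0.078). The list's sum was 13014 and 13676 at 6 dpp against 8967 and 9229 at 15 dpp.

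Macrophage markers that changed were mostly higher at 15 dpp, while the share of endothelial markers that fell depended on the filter. Of 14 macrophage markers 11 rose and 1 fell, but 5 had a 6 dpp mean under the filter, and only 5 rose without 15 dpp replicate 2. Mrc1 had signals of 32.8 and 25.5 at 6 dpp against 116 and 110.4 at 15 dpp (1.52 ± 0.18, adjusted p = 1.40e-05), and Csf1r 25.2 and 40.4 at 6 dpp against 76.6 and 221 at 15 dpp (1.61 ± 0.40, adjusted p = 0.0042), the last value well above the others. The call of Csf1r was lost without that array (0.95), and H2-Aa fell (-1.71 ± 0.31). The macrophage sum was 448 and 417 at 6 dpp against 767 and 986 at 15 dpp. Of 11 endothelial markers 5 fell and 1, Robo4 (2.05 ± 0.17), rose, and 3 fell without 6 dpp replicate 1 or 15 dpp replicate 2. Without the filter, 5 of 18 endothelial markers fell and 2 rose, with a median of -0.13. In the main fit 28.4% of all genes were lower and 28.8% higher. Signals of Robo4 were 63.5 and 86.6 at 6 dpp against 368 and 357 at 15 dpp. Cd34, found on stromal cells too, had signals of 404 and 475 at 6 dpp against 33.6 and 43.5 at 15 dpp and fell by 3.05 ± 0.16. All 3 red cell genes on the array were dim at both ages and none was tested.

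The 15 genes with the largest decreases included Igf1, Tagln and Hsd17b3, given above, and none of the 15 was on the matrix list. Signals of Mfap4, a microfibril protein, were 924 and 1059 at 6 dpp against 26.4 and 23.4 at 15 dpp (-4.59 ± 0.23, adjusted p = 7.63e-09), those of Slc1a6, a glutamate transporter, were 1163 and 906 at 6 dpp against 51.4 and 53.5 at 15 dpp (-3.89 ± 0.14, adjusted p = 6.07e-10), and those of Dlk1, an imprinted membrane protein of immature cells, were 613 and 706 at 6 dpp against 24.3 and 34.8 at 15 dpp (-3.87 ± 0.16, adjusted p = 1.17e-09). Meg3, a noncoding RNA from the same imprinted region as Dlk1, fell by 3.59 ± 0.14 (adjusted p = 1.12e-09), with 1 of 11 probe sets in the other direction. All 4 were bright at 6 dpp and close to the filter or a few times above it at 15 dpp. The rest were Ptprz1 (-3.69), the neurokinin B receptor gene Tacr3 (-3.68), Prss23 (-3.66), the desmosome gene Dsp (-3.65), Itm2a (-3.64), the aggrecanase gene Adamts5 (-3.42), Vgll3 (-3.41) and Ptx3 (-3.39), for which 1 of 2 probe sets went the other way. Of the 1146 genes that were at least 2-fold lower, 147 were dim on both 15 dpp arrays.

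Immediate early and stress genes fell in 16 of 27 members and rose in 4, against 28.4% and 28.8% of all genes. Their median was -0.56, and it was -0.36 without 15 dpp replicate 1. Ccn1 and Ccn2, targets of YAP and of serum, had signals of 5230.1 and 4081 at 6 dpp against 567 and 629 at 15 dpp and of 3848 and 3552 at 6 dpp against 582 and 587 at 15 dpp (-2.84 ± 0.099, adjusted p = 3.89e-10, and -2.58 ± 0.063, adjusted p = 5.83e-11). Egr1, a transcription factor that rises within minutes of stimulation, had signals of 1902 and 1652 at 6 dpp against 396 and 498 at 15 dpp (-1.95 ± 0.12, adjusted p = 4.04e-08), and the phosphatase gene Dusp1 changed by -2.17 ± 0.097. All of these were lower on both 15 dpp arrays. The 4 that rose were the heat shock genes Hspa1a (0.87), Hspa1b (0.76), Dnajb1 (0.66) and Hspb1 (0.33), of which 2 passed without 15 dpp replicate 2, where Hspa1a changed by 0.30 and Hspa1b by 0.42. Hspa1a also missed the threshold without the variance trend, without the filter and without 6 dpp replicate 1 (0.72) and Hspa1b without 6 dpp replicate 2 (0.71).

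Secreted products and the machinery that clears dying germ cells were also lower more often than higher. Of 34 secreted products 20 fell and 7 rose (median -0.71). The IGF-binding protein genes Igfbp4 and Igfbp7 had signals of 695 and 759 at 6 dpp against 104 and 98.5 at 15 dpp and of 2399.99 and 2135 at 6 dpp against 675 and 638 at 15 dpp (-2.62 ± 0.13 and -1.73 ± 0.08), and the chemokine gene Cxcl12 fell by 2.21 ± 0.11 (adjusted p = 7.91e-09). The largest increase on that list was that of Gpx3, the secreted glutathione peroxidase (2.18 ± 0.23, adjusted p = 5.88e-06), followed by Wnt4 (1.52 ± 0.14, adjusted p = 1.29e-06). Of 23 phagocytosis and lysosome genes 15 fell and 3 rose (median -0.37), against 28.4% and 28.8% of all genes, and 1 rose without quantile normalisation. Gas6, the bridging ligand of the receptors that take up dying cells, had signals of 1972 and 1869 at 6 dpp against 348 and 327 at 15 dpp (-2.44 ± 0.078, adjusted p = 2.29e-10). Its receptors Axl (-1.21 ± 0.071) and Tyro3 (-1.23 ± 0.12) fell, while the third, Mertk, did not pass (-0.23 ± 0.10, adjusted p = 0.062) but did so under 4 alternatives, such as no quantile normalisation (-0.25), and 1 of the 2 probe sets of Axl went the other way.

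Cell division genes rose more often than they fell. Of 59 members 32 rose and 10 fell, with a median of 0.49. Signals of Bub1, a spindle checkpoint kinase, were 131 and 126 at 6 dpp against 954 and 972 at 15 dpp (2.75 ± 0.12, adjusted p = 2.38e-09), those of Cks2, a subunit of cyclin-dependent kinases, were 708 and 725 at 6 dpp against 4059 and 3678 at 15 dpp (2.46 ± 0.08, adjusted p = 2.44e-10), and those of Cdc20, which opens anaphase, were 401 and 494 at 6 dpp against 2325 and 2182 at 15 dpp (2.28 ± 0.094, adjusted p = 1.29e-09). Top2a (1.72 ± 0.095), Ccne2 (2.45 ± 0.14) and Aurka (1.83 ± 0.12) rose as well. None of these overlapped between the ages. Among the members that fell were Rrm1 (-1.01 ± 0.13, adjusted p = 2.63e-05) and Tyms (-0.93 ± 0.20, adjusted p = 0.0016), which supply building blocks of DNA, the replication helicase genes Mcm6 (-0.49 ± 0.097) and Mcm4 (-0.46 ± 0.11), and Dnmt1, which copies DNA methylation (-0.53 ± 0.096). Other genes of replication rose, among them Mcm5 (0.58 ± 0.12), Mcm7 (0.32 ± 0.07) and the sliding clamp gene Pcna (0.64 ± 0.076). Mki67, a general marker of dividing cells, had signals of 254 and 243 at 6 dpp against 302 and 262 at 15 dpp and did not pass (0.15 ± 0.13, adjusted p = 0.344). Many of the members act in meiotic divisions too, and the meiotic sum given above moved with them.

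The promoters of Cdc20, Top2a and Prc1, a midzone protein gene (1.28 ± 0.11, adjusted p = 6.27e-07), are shown because they hold TTTGAA, the core of the element through which cell cycle genes are held silent in resting cells. The stretches are the 250 bases before the start of the gene, 5′ to 3′ on the coding strand, from RefSeq with build GRCm38.p6. Capitals mark TTTGAA and CCAAT, the box of the factor NF-Y, on either strand.
Cdc20, chr4:118437344-118437593, minus strand: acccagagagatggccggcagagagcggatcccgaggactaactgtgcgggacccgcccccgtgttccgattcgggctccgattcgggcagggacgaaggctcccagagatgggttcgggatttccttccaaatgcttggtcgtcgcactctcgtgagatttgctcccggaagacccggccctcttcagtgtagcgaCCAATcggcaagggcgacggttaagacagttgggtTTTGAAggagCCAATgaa
Top2a, chr11:99024190-99024439, minus strand: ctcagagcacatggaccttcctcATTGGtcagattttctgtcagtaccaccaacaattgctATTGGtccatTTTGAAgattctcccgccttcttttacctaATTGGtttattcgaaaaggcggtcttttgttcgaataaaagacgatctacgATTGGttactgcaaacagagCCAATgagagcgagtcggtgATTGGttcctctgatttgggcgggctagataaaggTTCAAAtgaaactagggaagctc
Prc1, chr7:80294226-80294475, plus strand: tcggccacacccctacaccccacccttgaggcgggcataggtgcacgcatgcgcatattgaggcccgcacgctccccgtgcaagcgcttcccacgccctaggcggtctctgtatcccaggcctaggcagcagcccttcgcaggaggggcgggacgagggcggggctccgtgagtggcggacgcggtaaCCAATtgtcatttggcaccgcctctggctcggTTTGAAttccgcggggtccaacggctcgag
The table held promoters for 48 of the 59 members, with 54 windows. TTTGAA was in 24.1% of them, against 5252 of all 32851 windows of the same length, and CCAAT was in 70.4%, against 33.8% of all windows. TTTGAA was in 28.6% of 28 windows of members that rose and 27.3% of 11 windows of members that fell, and CCAAT was in 75.0% and 72.7% of them.

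Among 26 regulators of the G1 phase 6 rose and 11 fell, against 28.8% and 28.4% over all genes, and their median ran from -0.25 to -0.0030 with 1 array left out and was 0.049 without the filter. Cdk6, the kinase partner of D-type cyclins, had signals of 565 and 537 at 6 dpp against 106 and 149.9 at 15 dpp (-1.96 ± 0.17, adjusted p = 6.78e-07), and Ccnd3, one of these cyclins, 385 and 363 at 6 dpp against 136 and 122 at 15 dpp (-1.41 ± 0.11, adjusted p = 3.63e-07). Both were lower at 15 dpp, as was Id1 (-1.34 ± 0.13). The cell cycle inhibitor Cdkn2d had signals of 105 and 107 at 6 dpp against 324 and 318 at 15 dpp (1.46 ± 0.11, adjusted p = 1.89e-07), and the pocket protein genes Rbl1 (1.55 ± 0.12) and Rb1 (1.10 ± 0.13) rose too. Cdkn1b, which encodes p27, known to build up when Sertoli cells stop dividing, had signals of 111 and 146 at 6 dpp against 147 and 141 at 15 dpp and did not pass (0.18 ± 0.23, adjusted p = 0.524). Its deposited signals overlapped between the ages.

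The same age difference was also measured in cells given 5 ng activin, on 4 other arrays. Normalisation, probe set choice and variance estimates were shared by both comparisons, and arrays of 1 age and replicate number deviated together across these doses (correlation across genes 0.16 at 6 dpp and 0.20 at 15 dpp). At 5 ng 7219 of 12405 genes (58.2%) passed, 3678 higher (29.6%) and 3541 lower (28.5%). Of the 7093 genes called at 0 ng, 6983 had the same direction at 5 ng and 6041 of them also passed there, while 110 had the opposite direction and 5 passed in both with opposite directions. At 5 ng 42 of 43 meiotic members, 31 of 59 cell division members and 11 of 26 glucose and lactate members were higher, and 42 of 46 matrix, 21 of 23 cholesterol and 25 of 44 activin pathway members were lower. Changes at 5 ng were 7.03 for Ldhc, 4.82 for Sycp3, 2.65 for Aqp8, -2.50 for Inhba, -2.15 for Inhbb and -2.56 for Col1a2.

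For a few genes, whether the age difference passed as dependent on the activin dose rested on how the replicate numbers were treated. The difference between the age changes at 5 and 0 ng was tested in the same limma model, and 0 genes passed (0.0%), with a smallest adjusted p of 0.502 and 834 genes (6.72%) at an unadjusted p under 0.05. Without replicate 2 of 15 dpp at 5 ng, 2 genes passed. In a limma fit with the replicate number as a block within each age, added after the data were seen, 10 of 12405 genes passed. An unadjusted p under 0.05 was found for 1339 of the 12405 in that fit, against 834 without the block. The change with age was lower at 5 ng for 8 of the 10. Among these were Ajuba, a LIM protein gene, with age changes of -1.52 at 0 ng and -2.32 at 5 ng (adjusted p = 0.0248 with the block and 0.502 without it), Otub1, a deubiquitinase gene, with 0.90 and -0.50 (0.0248 and 0.502), and Ccnd2 with 0.39 and -0.13 (0.0375 and 0.882). The change was higher at 5 ng for Dbi, a gene of acyl-CoA binding, with 0.023 and 0.43, and for the splicing factor gene Srsf1, with -0.016 and 0.41 (both 0.0474 and 0.502). The next 3 genes, chosen after their values were seen, had different values at the 2 doses but passed neither with the block nor without it. The adjusted p given for each is from the limma fit without a block. Smad7 changed by -0.85 at 0 ng and -1.41 at 5 ng (adjusted p = 0.742 for the difference), Nr0b1 by 2.74 and 3.55 (adjusted p = 0.7 for the difference), and Eng, an endothelial coreceptor of TGF-beta, by -0.58 and -1.40 (adjusted p = 0.7 for the difference). The change of Eng at 0 ng missed the threshold without 6 dpp replicate 1 (-0.38) or 15 dpp replicate 2 (-0.47). With 2 arrays in each group, a p that misses the threshold does not show that the age differences were equal.

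**Figure D5:**
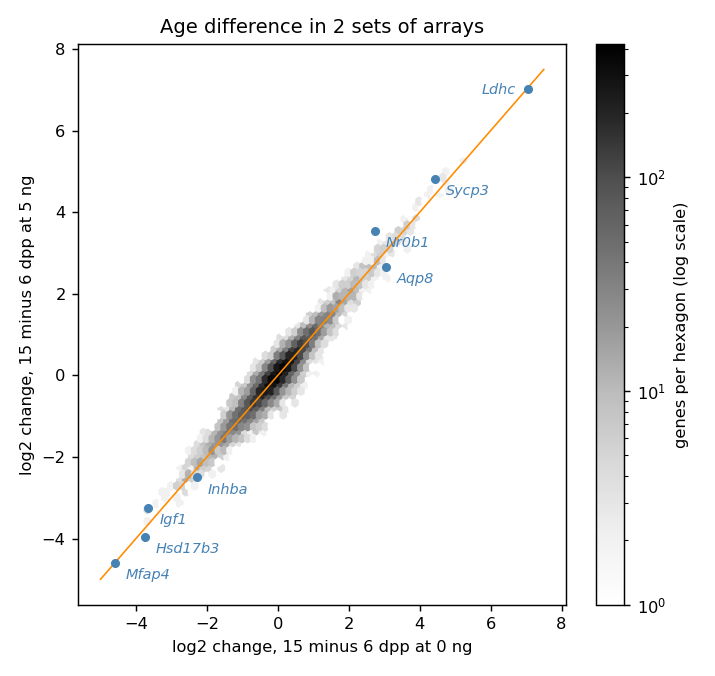
Log2 change, 15 minus 6 dpp, of 12405 genes at 0 ng activin (horizontal) and 5 ng (vertical), as hexagons shaded by the number of genes on a log scale; the orange line marks equal changes and 8 genes are named. The cloud follows the line from Mfap4 at -4.59 to Ldhc at 7.06.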

How the data were processed

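Per the labels' protocols, total RNA of mouse Sertoli cells was amplified from the 3' end in one cycle and labelled with biotin. The deposited values are linear intensities, 1 signal for each of 45101 probe sets on each of 10 arrays, as processed by the authors; the summarisation software is not given in the sources used here. Each array carries its own value column, and 0 columns were left unused. Arrays have no read depth, and the 2 arrays per group limit the precision. Median signals ran from 29.7 to 35.3.

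After 64 control probe sets were left out, signals were turned into log2(signal + 16), quantile normalised and filtered at the 40th percentile of the mean (log2 5.10, signal 18.4), which left 27022 probe sets. Symbols came from the platform annotation, updated through RefSeq GRCm38.p6: 34945 probe sets had 1 symbol (34741 matched to a current one, 204 keeping the annotation's name), and 932 with several and 9160 with none were not named. For a gene with several probe sets, the one of highest mean across all 10 arrays was kept, which gave 12405 genes. Of the genes named in the text, 30 had at least 1 other probe set that went the other way; those not mentioned beside their values are Acvr1b, Adcy3, Cgnl1, Cyp11a1, Dbi, Gnas, Igfbp7, Mcm5, Mcm6, Ncam1, Rb1, Rbl1, Srsf1 and Tgfb1.

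All 5 groups were fitted with limma 3.58.1 in R 4.3.3 (lmFit, eBayes with trend), and 15 minus 6 dpp was tested at 0 ng, at 5 ng and as the difference of both, with two-sided p-values adjusted by Benjamini-Hochberg over all genes; a gene passed under 0.05. The fit was tested on simulated data. The members, lists and tests were chosen with earlier results of these data known. Named genes are the 15 largest increases and 15 largest decreases without overlap between the ages, 33 fixed genes of the Sertoli cell and the activin pathway (2 of which are not reported here), and, from every list described, as many as 6 genes of smallest p; any other gene named was chosen after its values were seen. Lists overlap. Replicate numbers did not pair the arrays of the ages (correlation of same-number deviations -0.014 at 0 ng and -0.00050 at 5 ng), so no block entered the values of the age differences. Within an age, arrays of the same number deviated together across doses (0.16 to 0.19 over 3 pairs of groups at 6 dpp, 0.20 at 15 dpp), though the labels name no shared preparation, so dose dependence is given with and without a block within each age. The 20 alternatives covered normalisation, pseudocount, filter, variance trend, arrays in the fit, replicate block, probe set choice and a 2-fold rule. They also left out each array given 0 or 5 ng in turn. Promoters were matched by symbol to the RefSeq table.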

Additional observations from a re-analysis of the deposited data

Results flagged for a closer look

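Cst9, a cystatin of Sertoli cells, went in opposite directions with age at the 2 doses. At 0 ng both 15 dpp signals lay below the 6 dpp signals (1083 and 984 at 6 dpp against 965 and 913 at 15 dpp), a change of -0.12 ± 0.15, while at 5 ng the signals were 873 and 956 at 6 dpp against 1486 and 982 at 15 dpp, a change of 0.39 ± 0.15. The age change was 0.51 ± 0.21 higher at 5 ng, and in the limma test of that difference it did not pass (adjusted p = 0.734 for the difference). At 5 ng, 15 dpp replicate 1 stood well above the other 3 arrays.

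Otub1, a deubiquitinase gene, also went in opposite directions with age at the 2 doses. At 0 ng the signals were 48.8 and 68.3 at 6 dpp against 119 and 122 at 15 dpp, a change of 0.90 ± 0.20, while at 5 ng they were 92.2 and 138 at 6 dpp against 65.6 and 78.7 at 15 dpp, a change of -0.50 ± 0.20. The age change differed by -1.41 ± 0.29, which did not pass in the limma test of that difference without a block (adjusted p = 0.502 for the difference) and passed with the replicate number as a block within each age (adjusted p = 0.0248).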

How the results depend on the processing

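The count of 7093 genes that differed between the ages at 0 ng ranged from 5962 to 7011 with 1 array given 0 or 5 ng left out at a time. It was 6576 with array medians subtracted (3157 higher, 3419 lower), and 2246 with a 2-fold rule added, where the count at 5 ng was 2327, fewer by construction. At 5 ng the counts with 1 array left out ran from 6088 to 7154, and for the dependence on dose from 0 to 2. With the replicate number as a block, 7252 genes passed at 0 ng, 7376 at 5 ng and 0 for the dependence on dose; the numbers do not pair the arrays of the ages. With the replicate number as a block within each age, chosen after the data were seen, 10 of 12405 genes passed for the dependence on dose, with 3 residual degrees of freedom. The median of all genes moved to -0.006 without quantile normalisation and -0.021 with array medians subtracted. Of 219 named genes past the threshold, 199 stayed past it wherever they were tested among the 19 alternatives other than the 2-fold rule. Some of these, such as Amh and Rhox5, were not tested in every alternative. Another 19 lost it in at least 1, and Nectin3 changed direction (-0.07 as the mean of its probe sets). Among genes that did not pass, changes with 1 array left out crossed 0 for Ccnd2 (-0.21 to 1.01), Cldn3 (-0.32 to 1.09), Fst (-0.43 to 0.10), Smad3 (-0.24 to 0.05), Smad5 (-0.11 to 0.05) and Srsf1 (-0.07 to 0.04). The direction turned with the mean of probe sets for Smad3 (0.22), Smad5 (0.28) and Srsf1 (0.23), with array medians subtracted for Clu (-0.00) and Dbi (-0.08), and without quantile normalisation for Dbi (-0.06). The causes were not tested. With a pseudocount of 64 the list medians shrank to -0.87 (Leydig), -0.58 (myoid), 0.45 (macrophage), 1.17 (spermatid), -0.30 (spermatogonia) and -0.27 (hormone receptors). With the filter at the 60th percentile, the spermatogonial median was -0.079 over 21 genes, 2 of 3 macrophage and 2 of 2 spermatid genes tested were higher, and with the mean of probe sets 8 activin pathway genes rose. Sizes of change at dim genes depend on the pseudocount: with 64 and 1 in place of 16, that of Ldhc was 5.95 and 8.14, and that of Fabp9 4.58 and 9.12. Signals near the background limit what can be said of spermatid, macrophage and red cell genes.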

Other observations

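In the cells of 15 dpp, replicate 2 had higher signals than replicate 1 for genes of glycolysis at both doses, a pattern noticed after the values were seen. Of 26 glucose and lactate genes tested, 8 (30.8%) had a signal at least 1.5 times higher in replicate 2 at both 0 and 5 ng, against 139 of all 12405 genes (1.12%). At 0 ng alone, 10 of the 26 and 526 of all genes had such a ratio at 15 dpp, against none of the 26 and 624 of all genes at 6 dpp. Signals of Pfkp, a phosphofructokinase gene, were 80.6 and 71.9 at 6 dpp and 0 ng, 97.5 and 252 at 15 dpp and 0 ng, and 109 and 273 at 15 dpp and 5 ng.

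Other genes, chosen after their values were seen, lay in the same order. Signals of Egln3, an oxygen-sensing hydroxylase gene, were 25.9 and 29.4 at 6 dpp and 0 ng, 121 and 392 at 15 dpp and 0 ng, and 138 and 412 at 15 dpp and 5 ng. Those of Ankrd37 were 16.4 and 16.4 at 6 dpp and 0 ng, 78.9 and 259 at 15 dpp and 0 ng, and 82.4 and 223 at 15 dpp and 5 ng. Those of Adm, the vasodilator adrenomedullin, were 99.3 and 121 at 6 dpp and 0 ng, 284 and 625 at 15 dpp and 0 ng, and 208 and 568 at 15 dpp and 5 ng. In each of the 3, replicate 2 was at least 2 times replicate 1 at 15 dpp at both doses. Those of Vegfa, the vascular growth factor, were 203 and 132 at 6 dpp and 0 ng, 333 and 669.5 at 15 dpp and 0 ng, and 271 and 828 at 15 dpp and 5 ng, and those of Bnip3, a mitochondrial protein gene, were 253 and 275 at 6 dpp and 0 ng, 705 and 1317 at 15 dpp and 0 ng, and 649 and 1174 at 15 dpp and 5 ng. Replicate 2 was the higher 15 dpp array at both doses for each, and all 15 dpp arrays were above the 6 dpp arrays given 0 ng. Ccnd2 (1546 and 1559 at 6 dpp and 0 ng, 1355 and 3131 at 15 dpp and 0 ng, and 1229 and 2632 at 15 dpp and 5 ng) and Gja1 (2151 and 2423 at 6 dpp and 0 ng, 914 and 1588 at 15 dpp and 0 ng, and 1135 and 1824 at 15 dpp and 5 ng) showed the same order at 15 dpp. Vegfa passed the age test at 0 ng (1.43 ± 0.40, adjusted p = 0.0091) but not without 15 dpp replicate 2 (0.93) or 6 dpp replicate 2 (1.14). Pfkp passed (0.94 ± 0.37, adjusted p = 0.044) but not without 15 dpp replicate 2 (0.33), any 6 dpp array given 5 ng (0.94 and 0.95), 6 dpp replicate 1 (1.04) or 6 dpp replicate 2 (0.84), nor without the filter or the variance trend.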
